A study of Aethionema arabicum with 12 samples.

Results

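The genes described here turn the oil stored in a seed into sugar. They were followed in imbibed seeds of *Aethionema arabicum*, a relative of Arabidopsis in the Brassicaceae, whose germination light can inhibit. The members are the gene models that the deposited table pairs with 10 Arabidopsis genes: SDP1 (AT5G04040), PXA1 (AT4G39850), LACS6 (AT3G05970), LACS7 (AT5G27600), ACX2 (AT5G65110), MFP2 (AT3G06860), KAT2 (AT2G33150), ICL (AT3G21720), MLS (AT5G03860) and PCK1 (AT4G37870). Each of the 10 genes was paired with a single model, so the set holds 10 of the 24932 models in the table, and all 10 were among the 15301 models with enough counts to be tested. All seeds were of the Cyprus accession, labelled WT, and lay on wet filter paper at 14 °C. They were kept for 23 h (called 1 d), 7 d or 14 d in white light (100 µmol m-2 s-1), or for 7 d in that light and then 7 d in darkness. The dark-kept seeds matched those of 14 d of light in total time but were older than those of 7 d or 1 d. Against 7 d or 1 d of light, darkness and age therefore cannot be told apart. Only whole seeds without germination were taken, and each of the 4 conditions had 3 libraries of polyadenylated RNA. Whether the 3 libraries of a condition stem from different seed batches is not stated, and the p-values reflect the spread among libraries, part of which may be technical.

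In Brassicaceae seeds most of the energy reserve is triacylglycerol, held in oil bodies. The lipase SDP1 frees fatty acids, which enter the peroxisome through the transporter PXA1, are joined to coenzyme A by LACS6 or LACS7, and are shortened stepwise by beta-oxidation to acetyl-CoA. The glyoxylate cycle, through ICL and MLS, converts acetyl-CoA to organic acids, and PCK1 starts their conversion to sugar. In Arabidopsis this route feeds the seedling until photosynthesis begins, and mutants lacking PXA1 (also called COMATOSE) germinate poorly.

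The members did not move together. SDP1 and ACX2, for oil release and the first oxidation step, were lower than on the first day in every later condition. PXA1 was lower than on the first day at 14 d and after darkness, and MFP2 at 7 d and after darkness. The glyoxylate cycle genes ICL and MLS were higher than on the first day at 14 d and after darkness. LACS7 alone among the 10 was called higher after the dark week than after either 7 d or 14 d of light. A gene was called when the adjusted p of edgeR's quasi-likelihood test, corrected over all tested models by the Benjamini-Hochberg method, was below 0.05. Levels are CPM, counts scaled to a common library size with TMM factors, and changes are log2 fold changes with their standard error.

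**Figure D1:**
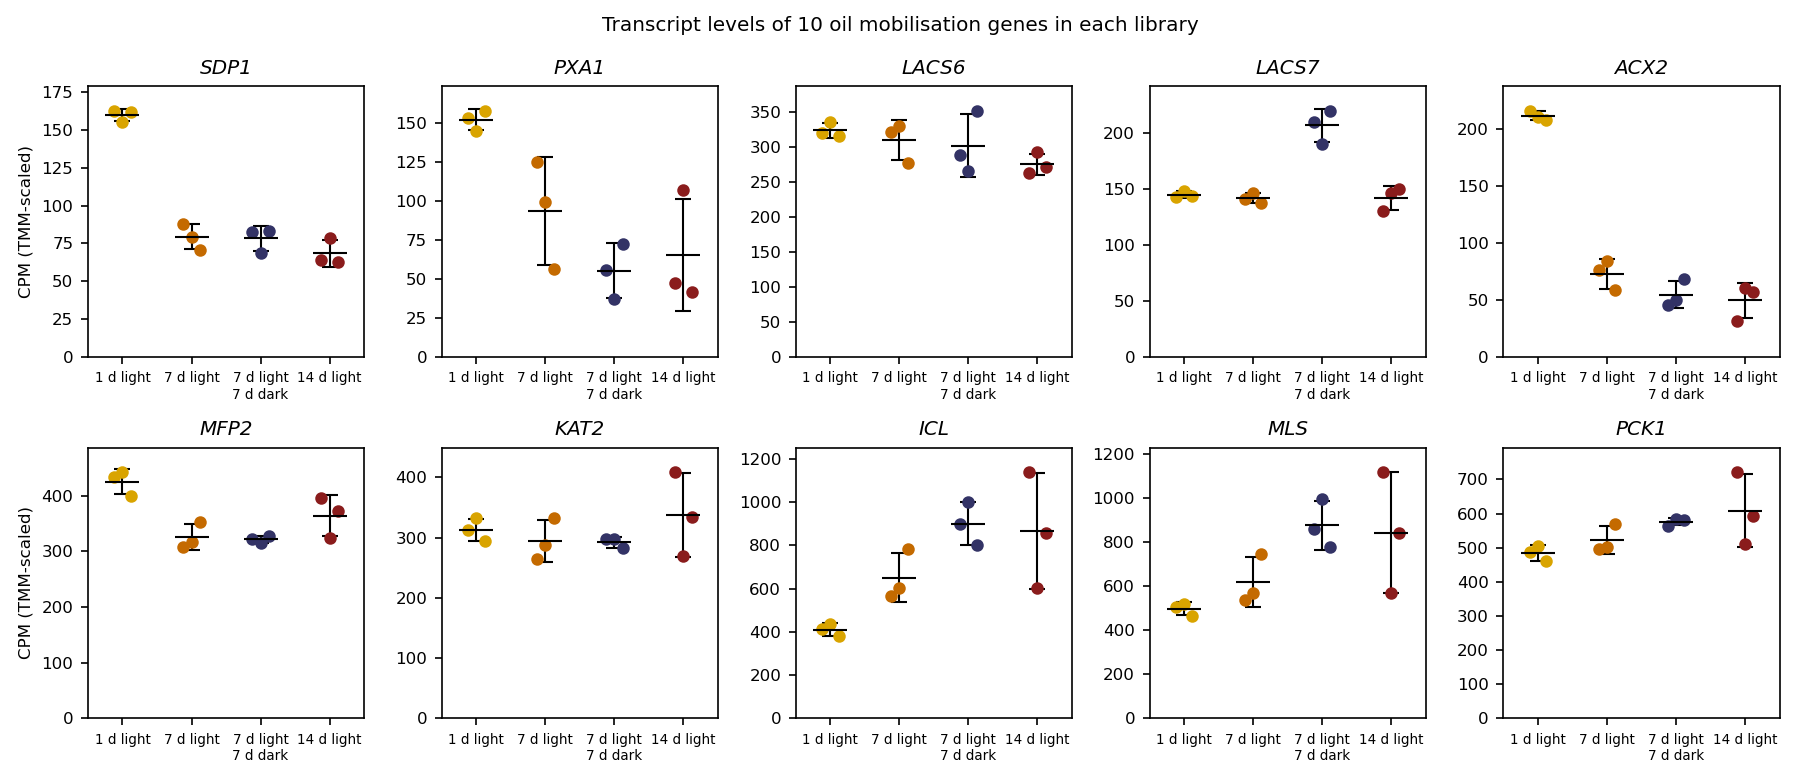
CPM of each member in each of the 12 libraries (points), with the mean and SD of the 3 libraries of a condition (bars). SDP1 and ACX2 stood highest after 1 d of light, ICL and MLS lowest, and LACS7 was highest in the 3 libraries from seeds kept in darkness (190.0 to 220 CPM).

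Depth differed between conditions, with 3387609 to 3996148 counts in a library at 1 d, 1596668 to 2689668 at 7 d, 1299536 to 1900418 in dark-kept seeds and 916523 to 2448092 at 14 d. Members had 27 to 2047 counts in a library. Libraries also differed in how counts depended on gene length. The slope of log2 CPM on log2 gene length, each gene taken relative to its mean, was 0.028 to 0.072 after 1 d, -0.078 to 0.075 after 7 d, -0.075 to 0.050 after light and darkness and -0.12 to 0.048 after 14 d. Seed identity was checked with reserve protein markers (8 of 12 genes paired, 10 models), which summed to 1280 to 1505 CPM after 1 d, 2405 to 3823 after 7 d, 3599 to 4950 after light and darkness and 2707 to 6383 after 14 d. All 10 reserve models were called higher at 7 d than at 1 d, where 60.4% of all tested models were called, 30.7% higher. Endosperm markers (2 of 3 paired, 3 models) summed to 164 to 224 CPM over the 12 libraries. Within that sum 1 model was called higher and 2 lower at 7 d against 1 d (log2 fold changes -0.98 to 1.09), likewise after darkness against 1 d, and 1 MAN5 model was lower after darkness than at 14 d (-1.06). Their part in the members' results was not tested. Seed coat markers (3 of 3 paired) reached at most 2.24 CPM, with TT12 at 0 in every library, and root markers (3 of 3 paired) at most 9.80 CPM, while no model was paired with the 4 leaf markers. Whole seeds were sampled, so fewer cells of a type and less RNA per cell cannot be told apart.

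Oil release was led by SDP1 (Aa31LG1G21300), the lipase that starts oil breakdown in Arabidopsis seeds. SDP1 had 163, 156 and 162 CPM after 1 d of light and 87.8, 79.6 and 71.0 CPM after 7 d. It had 82.9, 69.0 and 83.0 CPM after light and darkness and 63.8, 78.8 and 62.8 CPM after 14 d of light. All 9 later libraries lay below the 3 of the first day and overlapped among themselves. SDP1 fell by 1.00 ± 0.12 on the log2 scale at 7 d against 1 d (adjusted p = 1.13e-05), 2.01-fold lower. Its other differences from 1 d were -1.21 ± 0.12 at 14 d (adjusted p = 3.83e-06) and -1.03 ± 0.12 after darkness (adjusted p = 6.79e-06). No pair of the 3 later conditions differed beyond the test's threshold (adjusted p 0.428 to 0.921).

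SDP1-LIKE (SDP1L, Aa31LG10G12030), a second lipase of the family, was not called in any of the 6 comparisons. The ratio of SDP1 to SDP1L, in reads per kb of gene length within a library, does not depend on how libraries are scaled. The pairs of genes set in ratio here and further on were chosen after their values were seen. The ratio of SDP1 to SDP1L was 2.73 ± 0.11 after 1 d, 1.49 ± 0.36 after 7 d, 1.37 ± 0.12 after light and darkness and 1.45 ± 0.33 after 14 d (SD, n = 3 each). Within each later condition it was highest in the library with the lowest length slope (1.89 at 7 d, 1.51 after darkness and 1.69 at 14 d). The part of the slope in this ratio was not tested. At 7 d against 1 d the ratios did not overlap, and the exact two-sided permutation p was 0.1, the smallest that 3 against 3 allow.

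PXA1 (Aa31LG6G15420) encodes the peroxisomal ABC transporter that takes up fatty acids. PXA1 had 154, 145 and 158 CPM after 1 d and 125, 99.3 and 56.4 CPM after 7 d. It had 55.9, 37.3 and 72.4 CPM after light and darkness and 47.2, 107 and 41.8 CPM after 14 d of light. The first-day libraries were above all others, but within 14 d the libraries differed 2.56-fold and within 7 d 2.22-fold, more than for any other member. The log2 fold change was -1.14 ± 0.33 at 14 d against 1 d (adjusted p = 0.00854) and -1.44 ± 0.33 after darkness against 1 d (adjusted p = 0.00184). At 7 d against 1 d it was -0.68 ± 0.31 and missed the threshold (adjusted p = 0.0748).

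The level of PXA1, like that of most members, moved with the length slope of the library. Over the 9 later libraries the Pearson correlation of log2 CPM with the slope was 0.89 for PXA1. It was 0.92 for SDP1, 0.87 for LACS6, 0.76 for ACX2 and 0.21 for LACS7. For KAT2 it was -0.86, for ICL and MLS -0.82, for PCK1 -0.81 and for MFP2 -0.80. In the 4 libraries with a slope of -0.075 or lower PXA1 had 37.3 to 56.4 CPM. In the light libraries of 7 d and 14 d with positive slopes, 3 in number, it had 99.3 to 125 CPM. With the slope as a covariate in the fit, PXA1 was called lower at 7 d against 1 d (-0.56, adjusted p = 8.01e-09). It was also called lower after darkness against 7 d (-0.51, adjusted p = 0.000530) and 14 d of light (-0.55, adjusted p = 0.000591). Without the covariate PXA1 was called in neither comparison of darkness. The log2 fold change was then -0.76 ± 0.34 against 7 d (adjusted p = 0.143) and -0.30 ± 0.36 against 14 d (adjusted p = 0.654). The slope was estimated from the same counts that were tested, so p-values with this covariate, here and below, are no independent support. Without 14 d replicate 2 PXA1 was called lower at 14 d against 7 d (-1.11, adjusted p = 0.0416). After darkness against 14 d the log2 fold change without that library was 0.36 and not called (adjusted p = 0.506). The part of the slope in these differences was not tested further. PXA1 was called lower than at 1 d under all 19 alternative settings both at 14 d and after darkness, but the size at 14 d varied. It was -0.52 with the slope covariate and -1.81 without 14 d replicate 2.

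**Figure D2:**
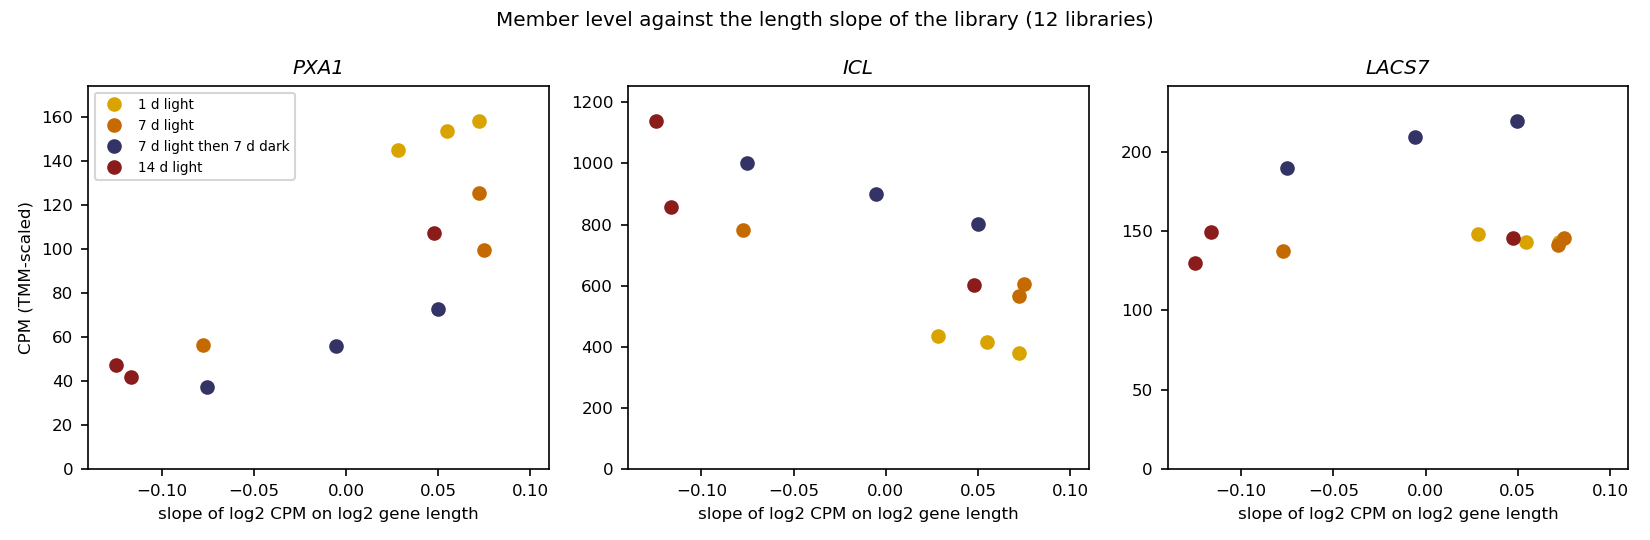
CPM of PXA1, ICL and LACS7 in each of the 12 libraries against that library's slope of log2 CPM on log2 gene length. PXA1 was lowest (37.3 to 56.4 CPM) in the 5 libraries with negative slopes, while LACS7 had 129.9 to 149 CPM in the 9 libraries from light and 190.0 to 220 CPM in the 3 from darkness.

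LACS6 and LACS7 are the peroxisomal long-chain acyl-CoA synthetases, which activate the imported fatty acids and act redundantly in Arabidopsis seeds. LACS7 (Aa31LG11G9360) had 143, 148 and 143 CPM after 1 d and 141, 146 and 138 CPM after 7 d. It had 209.6, 190.0 and 219.6 CPM after light and darkness and 129.9, 146 and 149 CPM after 14 d of light. The 3 dark-kept libraries lay above all 9 from light, and the light libraries of 1 d, 7 d and 14 d overlapped. LACS7 rose by 0.54 ± 0.10 after darkness against 14 d of light (adjusted p = 0.00346), 1.45-fold. Against 7 d of light it rose by 0.55 ± 0.10 (adjusted p = 0.00245) and against 1 d by 0.51 ± 0.10 (adjusted p = 0.000360). These 3 comparisons share the dark-kept libraries. Each call held under all 19 alternatives, with adjusted p up to 0.0499 against 14 d of light. Under total-count scaling the difference from 1 d was 0.32.

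LACS6 (Aa31LG5G16440) was not called in any comparison. LACS6 had 320.3, 336 and 316 CPM after 1 d and 322, 331 and 278 CPM after 7 d. It had 288, 266 and 352 CPM after light and darkness and 263, 292 and 271 CPM after 14 d of light. The dark-kept libraries overlapped those of every other condition. At 14 d all libraries lay below those of 1 d (-0.23 ± 0.12, adjusted p = 0.112). LACS6 was called lower there under 2 of 19 alternatives, total-count scaling (-0.40, adjusted p = 0.0119) among them. After darkness against 1 d it was called lower under total-count scaling (-0.30, adjusted p = 0.0431). The gene models of LACS7 and LACS6 are of like length (5744 and 5767 bases). The ratio of LACS7 to LACS6, in reads per kb within a library, was 0.449 ± 0.006 after 1 d, 0.460 ± 0.032 after 7 d, 0.691 ± 0.057 after light and darkness and 0.516 ± 0.032 after 14 d (SD, n = 3 each). The lowest dark-kept library had 0.626 and the highest library from light 0.553. The exact two-sided permutation p for darkness against 14 d of light was 0.1, the smallest that 3 against 3 allow.

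**Figure D3:**
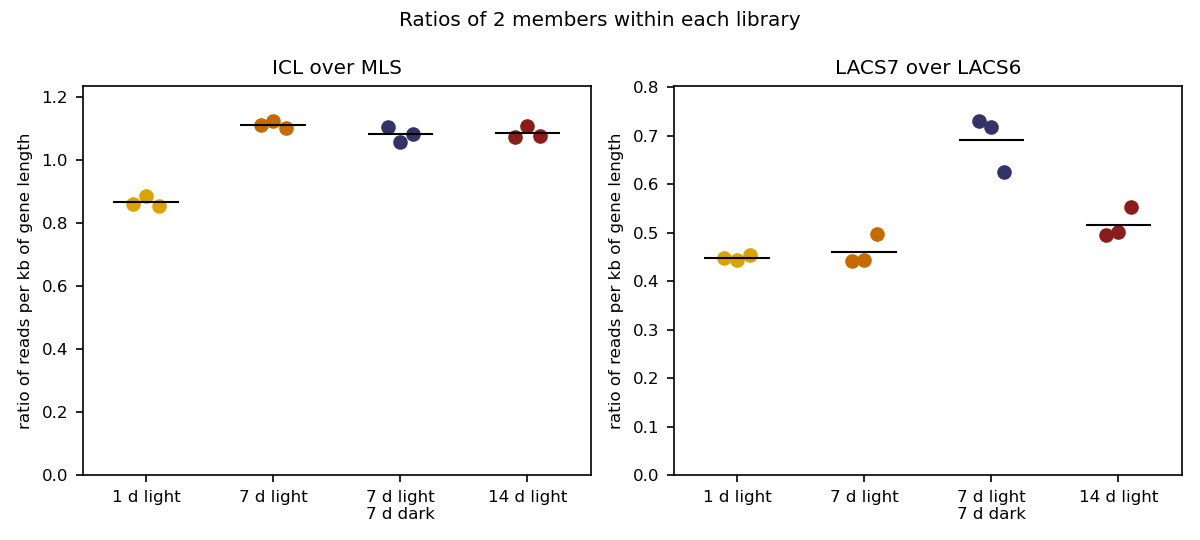
Ratio of reads per kb of gene length between pairs of members within each library (points) and its mean (lines). ICL over MLS was 0.856 to 0.886 after 1 d and 1.06 to 1.12 in all later libraries, and LACS7 over LACS6 was 0.626 to 0.730 after darkness and 0.441 to 0.553 in light.

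ACX2 (Aa31LG1G16860) encodes the acyl-CoA oxidase that in Arabidopsis prefers long chains, the first enzyme of beta-oxidation. ACX2 had 216, 211 and 208 CPM after 1 d and 76.1, 84.4 and 58.3 CPM after 7 d. It had 45.8, 49.5 and 68.0 CPM after light and darkness and 31.9, 60.5 and 56.8 CPM after 14 d of light. The first-day libraries stood apart from all others, and no other member changed as much. ACX2 fell by 1.53 ± 0.19 at 7 d against 1 d (adjusted p = 1.58e-05), 2.88-fold lower. At 14 d it was 4.09-fold lower than at 1 d (log2 fold change -2.03 ± 0.20, adjusted p = 2.84e-06), and after darkness 3.85-fold lower (-1.95 ± 0.20, adjusted p = 1.87e-06). Among the 3 later conditions it was not called (adjusted p 0.173 to 0.857), though with the slope covariate it was lower after darkness than after 7 d (-0.32, adjusted p = 0.0390).

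The multifunctional protein MFP2 (Aa31LG5G17440) carries out the hydration and dehydrogenation steps that follow, and the thiolase KAT2 (Aa31LG5G4050) cleaves off acetyl-CoA. MFP2 had 434, 443 and 400.3 CPM after 1 d and 308, 317 and 352 CPM after 7 d. It had 323, 315 and 327 CPM after light and darkness and 397, 323 and 372 CPM after 14 d of light. MFP2 fell by 0.39 ± 0.11 at 7 d against 1 d (adjusted p = 0.00670) and by 0.40 ± 0.11 after darkness against 1 d (adjusted p = 0.00435). At 14 d against 1 d the libraries did not overlap, but the difference of -0.23 ± 0.11 missed the threshold (adjusted p = 0.0763), and it passed under 5 of 19 alternatives. KAT2 ranged from 264 to 409 CPM over the 12 libraries and was not called in any comparison. It was called lower under 1 of 19 alternatives at 7 d and 2 of 19 after darkness, both against 1 d. The means of KAT2 were 313 ± 18.7 after 1 d, 295 ± 35.1 after 7 d, 292 ± 8.98 after light and darkness and 338 ± 69.3 after 14 d (SD, n = 3 each).

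ICL (Aa31LG8G8350), isocitrate lyase, and MLS (Aa31LG1G21410), malate synthase, are the enzymes particular to the glyoxylate cycle. ICL had 415, 437 and 379 CPM after 1 d and 567, 605 and 782 CPM after 7 d. It had 901, 1001 and 800.2 CPM after light and darkness and 1139, 602 and 859 CPM after 14 d of light. All later libraries were above those of the first day, those from darkness were above those of 7 d, and 14 d overlapped both. ICL was 1.59-fold higher at 7 d than at 1 d (log2 fold change 0.67 ± 0.20, adjusted p = 0.0109). Leaving out replicate 3 of 7 d light (adjusted p = 0.0644) or replicate 3 of 1 d light (adjusted p = 0.0661) ended that call. ICL was 2.11-fold higher at 14 d than at 1 d (1.07 ± 0.20, adjusted p = 0.000457) and 2.20-fold higher after darkness than at 1 d (1.13 ± 0.20, adjusted p = 0.000225), and both calls held under all 19 alternatives. With the slope as a covariate the difference at 14 d against 1 d was smaller, 0.63.

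MLS had 508, 521 and 467 CPM after 1 d and 538, 568 and 749 CPM after 7 d. It had 859, 998 and 779 CPM after light and darkness and 1119, 572 and 841 CPM after 14 d of light. As for ICL, the first-day libraries were lowest, and the 14 d libraries overlapped those of 7 d and of the dark-kept seeds. MLS rose by 0.75 ± 0.21 at 14 d against 1 d (adjusted p = 0.00630) and by 0.82 ± 0.21 after darkness against 1 d (adjusted p = 0.00326). The difference at 14 d against 1 d was 0.28 with the slope covariate (adjusted p = 0.00877) and 0.47 without replicate 1 of 14 d light (adjusted p = 0.0410). At 7 d against 1 d the log2 fold change of MLS was 0.31 ± 0.21 (adjusted p = 0.209).

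The glyoxylate cycle genes differed in ratio between the first day and later. In reads per kb, ICL over MLS was 0.867 ± 0.016 after 1 d, 1.11 ± 0.01 after 7 d, 1.08 ± 0.02 after light and darkness and 1.09 ± 0.02 after 14 d (SD, n = 3 each). All 9 later libraries were above the 3 of the first day, although within 14 d the level of each gene differed 1.89-fold and 1.96-fold between libraries. For 7 d against 1 d the exact two-sided permutation p was 0.1, the smallest possible with 3 against 3, and for darkness against 14 d of light it was 0.9.

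In each of the 3 later conditions ICL and MLS were highest in the library with the lowest length slope (replicate 3 of 7 d light, replicate 2 of the dark-kept seeds and replicate 1 of 14 d light). The same libraries had the highest summed CPM of seed reserve markers in their condition (3823, 4950 and 6383), and the part of either measure in the result was not tested. Between darkness and 7 d of light the log2 fold change was 0.47 ± 0.20 for ICL (adjusted p = 0.120) and 0.51 ± 0.21 for MLS (adjusted p = 0.106). With the slope as a covariate these were 0.36 (adjusted p = 0.000460) and 0.39 (adjusted p = 0.000190). Against 14 d of light the covariate gave 0.29 for ICL (adjusted p = 0.00598) and 0.31 for MLS (adjusted p = 0.00418), where without it the log2 fold changes were 0.06 ± 0.20 and 0.06 ± 0.21.

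PCK1 (Aa31LG6G14780) encodes phosphoenolpyruvate carboxykinase, the entry to gluconeogenesis. PCK1 had 487, 506 and 461 CPM after 1 d and 495, 501 and 569.9 CPM after 7 d. It had 565, 585 and 580.1 CPM after light and darkness and 721, 511 and 594 CPM after 14 d of light. Libraries of 14 d and of the dark-kept seeds were all above those of the first day. The rise at 14 d against 1 d was 0.32 ± 0.13 (adjusted p = 0.0380), a call that was lost under 17 of 19 alternatives (adjusted p up to 0.523). The PCK2 model had 2 counts in all and was not tested.

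**Figure D4:**
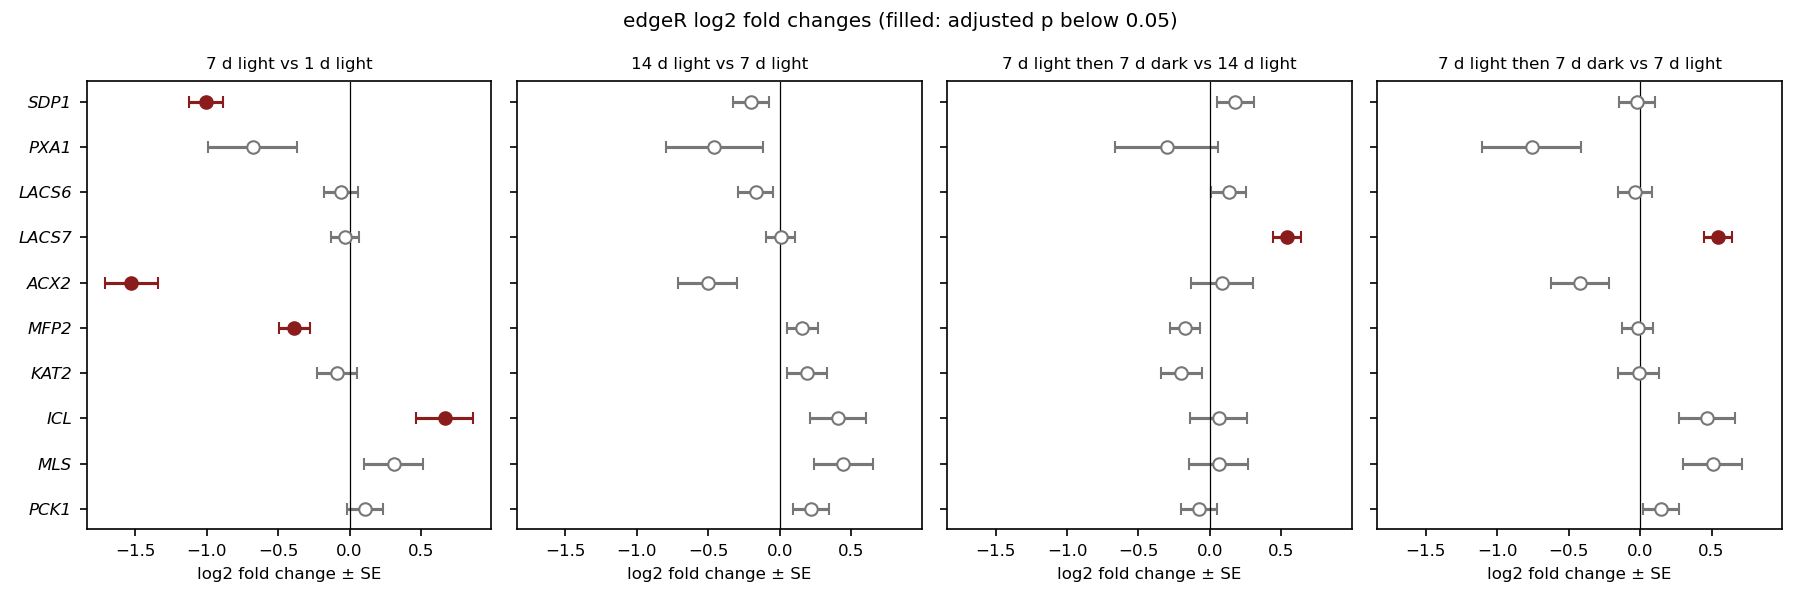
Log2 fold change with standard error for each member in 4 of the 6 comparisons, filled where the adjusted p was below 0.05. In the first week SDP1, ACX2 and MFP2 were called lower and ICL higher, no member was called between 14 d and 7 d of light, and LACS7 was the member called in both comparisons of darkness with light.

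Over the set, 1 member rose and 3 fell at 7 d against 1 d, 4 of 10, where 60.4% of all tested models were called (30.7% higher, 29.7% lower). The medians of log2 fold change were -0.07 over the members and 0.02 over all tested models. Levels of 6 members did not overlap between 7 d and 1 d, against 69.2% of all models. At 14 d against 1 d 3 members rose and 3 fell (63.4% of all models called, 31.8% higher and 31.6% lower). After darkness against 1 d 3 rose and 4 fell (68.7% called, 33.2% higher and 35.5% lower). Levels of 8 members did not overlap in either comparison, against 68.4% of all models at 14 d and 78% after darkness. The share of members called was near or below that of all genes in these 3 comparisons.

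Between 14 d and 7 d of light no member was called by edgeR or by DESeq2, 1 had an unadjusted p under 0.05 (ACX2, log2 fold change -0.50 ± 0.21), and 0.307% of all tested models were called (0.163% higher, 0.144% lower). Over all tested models 1813 had an unadjusted p under 0.05. No member had levels that did not overlap, against 11.9% of all models. Without replicate 2 of 14 d light 3 members were called: PXA1 (-1.11), ICL (0.63) and MLS (0.68, adjusted p = 0.0343). Without that library 10.8% of all tested models were called, so the low share over all models also rests on it. After darkness, 1 of 10 members was called against 14 d of light (13.1% of all models, 6.05% higher and 7.03% lower). Against 7 d of light it was also 1 of 10 (18.4%, 8.42% higher and 9.99% lower), LACS7 in both. The count against 7 d of light was 3 without replicate 3 of 7 d light (23.5% of all models), 3 without replicate 1 of 14 d light (19.8%) and 4 without replicate 2 of 14 d light (24.7%), and those gained were among PXA1, ICL and MLS. Levels of 1 member did not overlap between darkness and 14 d (27.7% of all models) and of 3 members, LACS7, ICL and MLS, between darkness and 7 d (33.5%). Under total-count scaling in place of TMM the median of all tested models at 7 d against 1 d was -0.11, at 14 d against 1 d -0.16 and after darkness against 1 d -0.24. Each called direction named above for SDP1, PXA1, ACX2, MFP2, ICL, MLS, LACS7 and PCK1 was the same under that scaling. The call of PCK1 at 14 d against 1 d was lost there, however (0.15, adjusted p = 0.241).

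Among the 10 members, ICL, MLS and PCK1 had the highest levels per kb of the deposited gene length. The sources used here do not say whether that length includes introns, so the order between genes is uncertain. On the first day the mean CPM per kb was 123 for MLS, 118 for PCK1 and 107 for ICL, 88.2 for MFP2 and 87.2 for KAT2, 69.4 for ACX2, 56.2 for LACS6 and 47.2 for SDP1, and 25.9 for PXA1 and 25.2 for LACS7. After 14 d of light it was 226 for ICL and 209 for MLS, against 16.3 for ACX2 and 11.1 for PXA1. Reads per base of gene length reached 0.506 in a member, and in the whole table no model of 300 bases or longer exceeded 1. With counts corrected for such a limit, an alternative added with the values in view, the first-week changes were -1.11 for SDP1, -1.71 for ACX2 and 0.60 for ICL (adjusted p = 0.0145). MLS at 14 d against 1 d was then 0.56 (adjusted p = 0.0264).

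The rest of the pathway was read from lists of 51 further Arabidopsis genes, of which 40 were paired with 51 models and 45 models were tested. At 7 d against 1 d 12 of the 45 rose and 15 fell, a median of 0.03. These 27 calls were a share near that of all tested models, 60.4% (30.7% higher and 29.7% lower). At 14 d against 7 d none was called by edgeR (0.307% of all models). Without replicate 2 of 14 d light 5 were called (10.8%). After darkness 2 rose and 1 fell against 14 d of light (13.1% of all models called, 6.05% higher and 7.03% lower). Against 7 d of light 7 rose and 3 fell (18.4% called, 8.42% higher and 9.99% lower). The 10 calls against 7 d varied with the libraries used, given here with the share of all models called. They were 2 without replicate 2 of 7 d light (10.7%) or replicate 2 of the dark-kept seeds (10.8%). Without replicate 1 of the dark-kept seeds they were 3 (10.3%), and without replicate 1 of 7 d light 4 (11.1%). Leaving out any 1 library of the first day gave 6 (15.2% to 15.5%). With the replicate block they were 6 (13.8%), and with the slope covariate 20 (36.3%). The 3 calls against 14 d were 1 when only the 6 libraries compared were fitted (6.47%) and 18 with the slope covariate (33.8%). They were 6 without replicate 1 of 14 d light (12.2%) and 5 without replicate 2 of 14 d light (14.6%).

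Among the other acyl-CoA oxidases 1 of 5 rose and 3 fell in the first week (60.4% of all models called). ACX3 (Aa31LG1G7310), for medium chains, averaged 46.7 CPM at 7 d and 101 CPM at 1 d (log2 fold change -1.11 ± 0.16, adjusted p = 6.43e-05), and an ACX4 copy, for short chains (Aa31LG5G23700), fell by 0.30 ± 0.08. An ACX1 copy (Aa31LG9G12100) rose by 1.07 ± 0.26 (10.6 CPM at 7 d and 5.15 CPM at 1 d). Each of these oxidases was paired with more than 1 model, and the sources used here do not say how reads were shared between copies, so these values are uncertain. Acetyl-CoA synthetase ACN1 (Aa31LG8G3980), which activates acetate in the peroxisome, averaged 201 CPM at 7 d and 95.5 CPM at 1 d, a called rise (adjusted p = 1.53e-06).

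Of the auxiliary enzymes 1 of 5 rose and 2 fell in the first week (60.4% of all models called). ECH2 (Aa31LG4G6270) rose by 0.86 ± 0.20, against SDRB (Aa31LG8G80) at -0.53 ± 0.11 and ECI2 (Aa31LG9G2890) at -0.47 ± 0.13. They handle the double bonds of unsaturated chains. Of the cofactor carriers, PXN (Aa31LG5G19640), which brings NAD into the peroxisome, fell by 0.56 ± 0.10. The ATP carrier PNC1 was paired with 2 models that went apart, Aa31LG5G15740 at -0.56 ± 0.10 and Aa31LG11G9240 at 0.37 ± 0.10.

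Further glyoxylate cycle genes split as well, with 2 of 7 higher and 1 lower at 7 d against 1 d (60.4% of all models called). The peroxisomal citrate synthase gene CSY3 (Aa31LG1G24550), which makes citrate from acetyl-CoA, averaged 84.2 CPM at 7 d and 248 CPM at 1 d (-1.56 ± 0.10, adjusted p = 1.82e-07). The malate dehydrogenase PMDH1 (copy Aa31LG3G17410) averaged 122 CPM at 7 d and 50.0 CPM at 1 d (1.28 ± 0.22, adjusted p = 0.000225). It was higher again after darkness than at 7 d (0.75 ± 0.21, adjusted p = 0.0272). Of the 7 models 1 was called higher and 1 lower in that comparison (18.4% of all models called). After darkness against 14 d of light 0 of 7 were called (13.1% of all models).

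PPDK (Aa31LG9G1910), pyruvate orthophosphate dikinase, which supplies a further route to sugar, fell in the first week (-0.61 ± 0.09, adjusted p = 7.35e-05). It was higher after darkness than at 14 d (0.55 ± 0.09, adjusted p = 0.00203) and at 7 d of light (0.42 ± 0.09, adjusted p = 0.00712). Its mean was 253 CPM in the dark-kept seeds and 173 CPM at 14 d.

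The thiolase KAT5 (Aa31sc656G10) was called lower in darkness than in light. It had 1, 0 and 1 counts in the dark-kept libraries and 4, 24 and 12 counts at 14 d of light, 19.5-fold lower (95% exact counting interval 5.06 to 167; edgeR adjusted p = 0.000496). Against the 18, 15 and 12 counts at 7 d of light the dark-kept seeds were 15.5-fold lower (4.04 to 132). The interval covers counting error only. At 7 d against 1 d KAT5 fell by 1.34 ± 0.21, while AIM1 (Aa31LG2G21340), a multifunctional protein of beta-oxidation, rose by 0.29 ± 0.11 (adjusted p = 0.0297).

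Peroxisome biogenesis genes split evenly at 7 d against 1 d, with 5 of 18 higher and 5 lower (60.4% of all models called). After darkness against 7 d 4 were higher and none lower (18.4% of all models called, 8.42% higher and 9.99% lower). Against 14 d of light 0 of 18 were called (13.1% of all models). In the first week a PEX22 copy (Aa31LG9G2160) rose by 2.18 ± 0.20, PEX19B (Aa31LG11G12130) by 1.22 ± 0.23, and PEX11D (Aa31LG10G15170) fell by 0.95 ± 0.11.

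Genes of the opposite route, oil synthesis, were 3 higher and 3 lower of 9 tested models at 7 d against 1 d. Over all models 60.4% were called there. Of the acyltransferases that can complete triacylglycerol, DGAT2 (Aa31LG1G11280) was higher by 0.96 ± 0.11 (adjusted p = 1.45e-05) and DGAT1 (Aa31LG8G16450) by 0.58 ± 0.09. The other acyltransferase genes on the list, PDAT1 among them, are not reported here. The elongase FAE1 was paired with 4 models, and Aa31LG4G13960 averaged 0.147 CPM at 7 d and 6.87 CPM at 1 d. After darkness 1 of the 9 models was called higher and 1 lower against 7 d of light (18.4% of all models called). Against 14 d of light 1 was called higher and 1 lower (13.1% of all models). Compared with 7 d, the desaturase gene FAD3 (Aa31LG5G6710) was lower after darkness (-1.65 ± 0.19). WRI1 (Aa31sc760G10), a transcription factor of oil synthesis, was higher in that comparison (0.98 ± 0.16). Both were named after their values were seen.

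**Figure D5:**
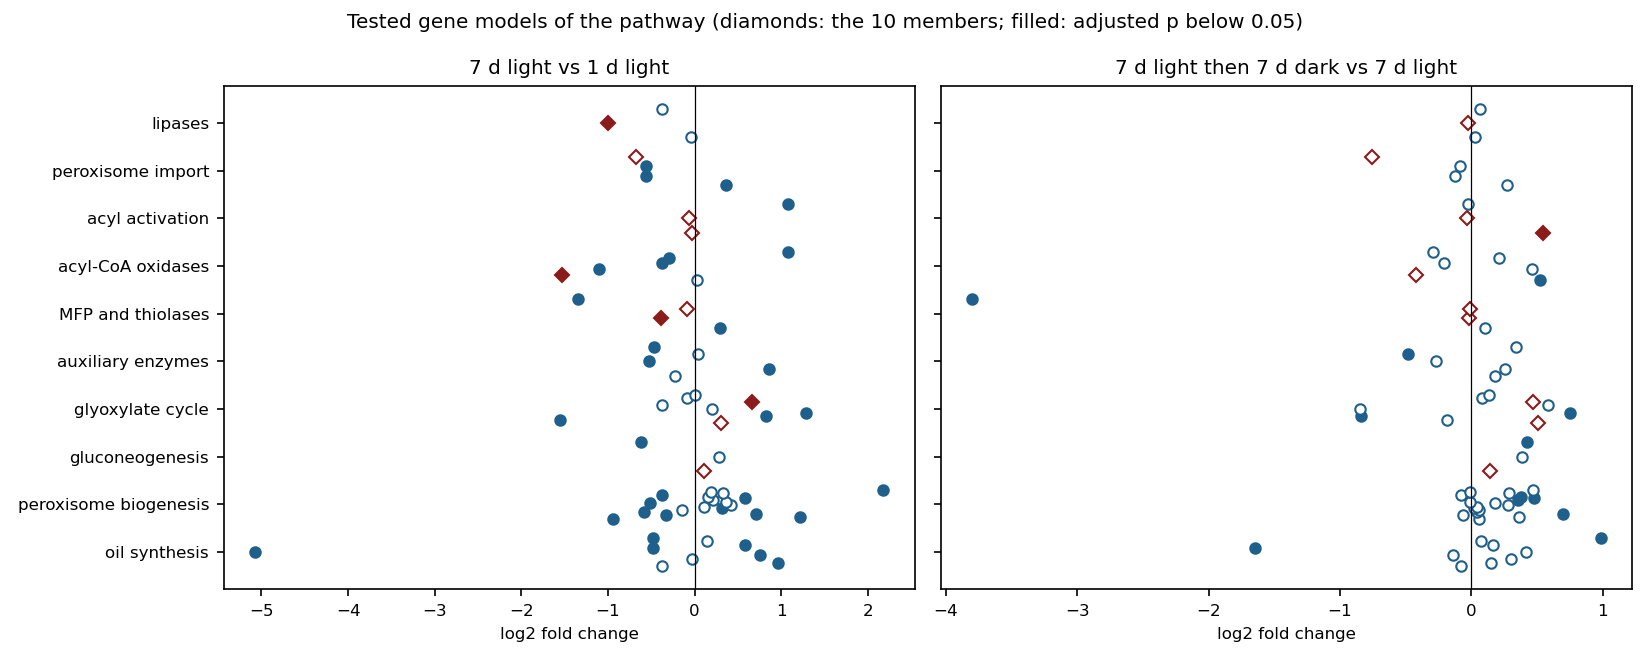
Log2 fold change of each tested model of the pathway lists at 7 d against 1 d of light and after darkness against 7 d of light, with diamonds for the 10 members and filled symbols for an adjusted p below 0.05. Calls went both ways in most lists in the first week, and after darkness KAT5 (-3.80) was lowest and LACS7 (0.55) was the member called.

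The tested models whose log2 CPM was most like that of a member over the 12 libraries were chosen among 12913 models with a paired Arabidopsis gene and a mean of at least 8 CPM. These correlations are descriptions, since the 12 libraries share depth, length slope and a gap between the first day and the later conditions. ICL was most like a cruciferin model (Aa31LG5G3120, Pearson r = 0.998), an ERD15 model (Aa31LG1G23450, 0.997) and a 14-3-3 phi model (Aa31LG6G8620, 0.997). The cruciferin model averaged 340 CPM after 1 d, 664 after 7 d, 980 after light and darkness and 1002 after 14 d. MLS was most like a glycine-rich protein model (Aa31LG2G14320, 0.992), and PCK1 was most like an EF1B gamma chain model (Aa31LG1G5350, 0.970). SDP1 was most like a TCP-1/cpn60 chaperonin model (Aa31LG3G5320, 0.990), which averaged 121 CPM after 1 d, 67.0 after 7 d, 70.8 after light and darkness and 60.8 after 14 d.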

How the data were processed

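The authors deposited raw counts per gene model and library, RPKM values and a gene length. The submitters' processing notes list HTSeq 0.11.2, Bowtie2 2.3.5.1, Trimmomatic, bcl2fastq 2.17.1 and the build TAIR10 without roles, although the models are those of *Aethionema*. How duplicates and strand were treated is not stated there. The deposited RPKM values equalled count over gene length and library total in 208822 values above 0 (largest relative difference 3.45e-08) and entered no test.

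Conditions and columns were matched by sample title. Counts were fitted in R 4.3.3 with edgeR 4.0.16 (DESeq2 1.42.0 as an alternative): TMM scaling, the default expression filter, 4 condition means over 12 libraries, quasi-likelihood F-test, 8 residual degrees of freedom, two-sided, Benjamini-Hochberg adjustment over 15301 models, threshold 0.05. The code was tested on simulated data. CPM are TMM-scaled, and standard errors were derived from the log2 fold change and its F statistic. Models left untested held 0.379% of counts. Members had 27 to 2047 counts in a library. Replicate pairs differed by more than sampling noise (chi-square per degree of freedom 1.14 to 7.68).

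The members, lists and tests were chosen with earlier results of these data known. All members were named, with up to 3 called models per further list by smallest adjusted p. Some of these are not reported here. Alternatives were other scaling, tool, filter, samples, replicate block, length slope covariate, leaving out each library, and, chosen after seeing the data, a read density correction.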

Additional observations from a re-analysis of the deposited data

How the results depend on the processing

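Over 60 pairs of member and comparison and 19 alternatives, 1041 of 1140 values kept their direction and their side of the threshold, 19 lost a call and 38 gained one. In 42 the sign changed, and in 0 of those was the value called before or after. Calls of SDP1, ACX2, PXA1, ICL, MLS and MFP2 after darkness against 1 d, and of LACS7 in the 3 comparisons of darkness, held under all 19.

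The number of members called moved by more than 1.5 times with the length slope covariate, giving 7 in place of 4 at 7 d against 1 d, 4 in place of 1 after darkness against 14 d and 5 in place of 1 after darkness against 7 d. Over all models the share called under that covariate was 75.4%, 33.8% and 36.3% in the same comparisons, against 60.4%, 13.1% and 18.4% without it. The cause was not tested. When each library was left out, members called were 0 to 3 at 14 d against 7 d (0.0845% to 10.8% of all models). After darkness against 7 d they were 1 to 4 (10.3% to 24.7%). Whether the replicate numbers pair libraries is not stated. Correlations of same-numbered deviations were -0.47 to 0.48, with 4 of 18 over 0.1. For differently numbered libraries they were -0.68 to 0.52, with 14 of 36 over 0.1. Deviations from a mean of 3 libraries depend on each other and the libraries differed in length slope, so these values cannot settle pairing. With the replicate block 4 members were called at 7 d against 1 d (56.4% of all models) and 0 at 14 d against 7 d (0.163%). After darkness 1 was called against 14 d (9.8%) and 1 against 7 d (13.8%). Against 1 d 5 were called at 14 d (60%) and 7 after darkness (66.1%).

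Sign changes without a call were the following, on the log2 scale. Total-count scaling gave -0.024 for PCK1 at 7 d against 1 d, -0.030 for LACS7 at 14 d against 7 d and -0.075 for KAT2 at 14 d against 1 d. The read density correction gave -0.098 for PCK1 at 7 d against 1 d and -0.058 for KAT2 at 14 d against 1 d. DESeq2 gave 0.0030 for MFP2 and 0.0099 for KAT2 after darkness against 7 d. The length slope covariate gave 0.045 for PXA1 and -0.014 for KAT2 at 14 d against 7 d, and 0.038 for LACS7 and -0.16 for KAT2 at 14 d against 1 d. After darkness it gave -0.022 for ACX2 and 0.033 for PCK1 against 14 d, and 0.039 for SDP1 and 0.017 for LACS6 against 7 d. Leaving out each library gave -0.016 to 0.056 for LACS7 at 14 d against 7 d and -0.086 to 0.22 for KAT2 at 14 d against 1 d. After darkness against 14 d it gave -0.55 to 0.36 for PXA1, -0.11 to 0.26 for ACX2, -0.14 to 0.33 for ICL, -0.15 to 0.34 for MLS and -0.18 to 0.082 for PCK1. After darkness against 7 d it gave -0.083 to 0.070 for SDP1, -0.14 to 0.047 for LACS6, -0.042 to 0.052 for MFP2 and -0.069 to 0.097 for KAT2.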
